A study of Oryza sativa with 24 samples.

Results

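Chlorophyll is built in the chloroplast from protoporphyrin, and the genes described here are those of the enzymes that carry protoporphyrin towards chlorophyll together with the GOLDEN2-LIKE (GLK) transcription factor genes OsGLK1 and OsGLK2. Members were the probe sets with exactly 1 gene whose name or synonym was CHLH, CHLD, CHLI, CHLM, CRD1, PORA, PORB, DVR, OsGLK1 or OsGLK2 in the array's annotation or in a RefSeq gene table. This gave 7 genes with 11 probe sets, out of the 17905 genes that have a probe set of exactly 1 gene on the rice array. CHLH (LOC4332690) had 2 probe sets and OsGLK2 (LOC4326363) had 4, whereas CHLD (LOC4334537), CHLI (LOC4333259), PORA (LOC4337415), PORB (LOC4349004) and OsGLK1 (LOC4340977) had 1 each. DVR was matched to a gene but to no probe set, and CHLM and CRD1 were not matched. A gene is represented by its brightest probe set unless another is named.

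Magnesium chelatase, made of the subunits CHLH, CHLD and CHLI, inserts magnesium into protoporphyrin and so commits it to chlorophyll rather than heme. PORA and PORB are protochlorophyllide oxidoreductases, which carry out the light-requiring step later in the branch. GLK factors are known in rice and other land plants to promote chloroplast development and to activate genes of chlorophyll synthesis and light harvesting, and cytokinins are plant hormones known to promote greening.

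The study compared excised organs of rice (Oryza sativa, cultivar Nipponbare) exposed to trans-zeatin (tZ), an active cytokinin, or to its solvent alone. Whole roots or the third leaves were cut from seedlings aged 2 weeks grown on tap water, and kept at 30 °C in distilled water with 5 µM tZ or with 0.1% dimethylsulfoxide (DMSO) for 30 or 120 min. The 24 arrays form 8 groups of 3, namely root DMSO 30 min, root tZ 30 min, root DMSO 120 min, root tZ 120 min and the same 4 conditions in leaf. All groups share cultivar, age, excision and incubation, and no group of intact seedlings is among them. The labels do not say whether replicates were separate cultures, and the p-values here therefore describe array-to-array spread that could be technical only. Groups were taken from the sample titles, because every sample carries root in its tissue field and the protocol text of 1 root group names both times.

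The organ in the titles was checked against defining markers. LFNR1, a leaf ferredoxin-NADP reductase gene of photosynthesis, differed by 6.67 (leaf minus root, log2, SE 0.064) over the 4 conditions. This is the direction of the titles. OsCASP1, of the Casparian strip of root endodermis, was bright enough to be tested in root and too dim in leaf. That order also goes with the titles, but no size or test of its organ difference is given. The treatment labels were checked against the type-A response regulators, which are known for rapid induction by cytokinin. With the labels, 3 of 5 tested ones were called higher in root tZ than in root DMSO at 30 min (OsRR4 by 1.86, OsRR6 by 1.05 and OsRR2 by 0.42), 2 at 120 min, 1 in leaf at 30 min (OsRR6 by 0.82) and 4 in leaf at 120 min. The shares of all probe sets called higher in these comparisons were 13.9%, 11.4%, 23.7% and 22%. OsRR9 was lower in tZ in root at both times and in leaf at 30 min, and OsRR1 was lower in leaf at 30 min. All 5 tested regulators were higher in DMSO 120 min than in tZ 30 min, without overlap between the arrays, in root and in leaf. Over all probe sets, 35% in root and 44.2% in leaf were called in that pair, in either direction. The share of all probe sets without overlap was not counted. In that pair a difference with time and swapped labels cannot be told apart, and neither was tested. If these 2 groups had each other's labels, each labelled tZ minus DMSO difference would be a difference between 120 and 30 min, and each labelled time difference one between tZ and DMSO. Treatments and times below are therefore the labelled ones, and all 6 pairs of groups within an organ are given. The median signal of an array was 68.2 to 86.7 in root and 47.6 to 57.0 in leaf, and the correlation of replicate arrays over probe sets was 0.960 to 0.982.

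In leaf, both GLK genes were higher and 3 of the 5 enzyme genes were lower in the arrays labelled tZ than in those labelled DMSO, at both times. Each gene stands here by its brightest probe set, and the probe sets of OsGLK2 disagreed, as described below. Signals are linear units of the deposited table, in the order of replicates 1, 2 and 3, and changes are differences of log2(signal + 20). A change was called at an adjusted p below 0.05 in limma, adjusted over all 34316 probe sets tested in that organ. At 30 min 2 of 7 members were called higher and 3 lower, where 45.6% of all probe sets tested were called, 23.7% higher and 21.8% lower. At 120 min the counts were the same, 2 higher and 3 lower, against 43.4% of all probe sets, 22% higher and 21.4% lower. Because so many probe sets were called, the size of each change is given beside its rank among all probe sets tested. In bulk samples, fewer cells of a type and less RNA per cell cannot be told apart.

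**Figure D1:**
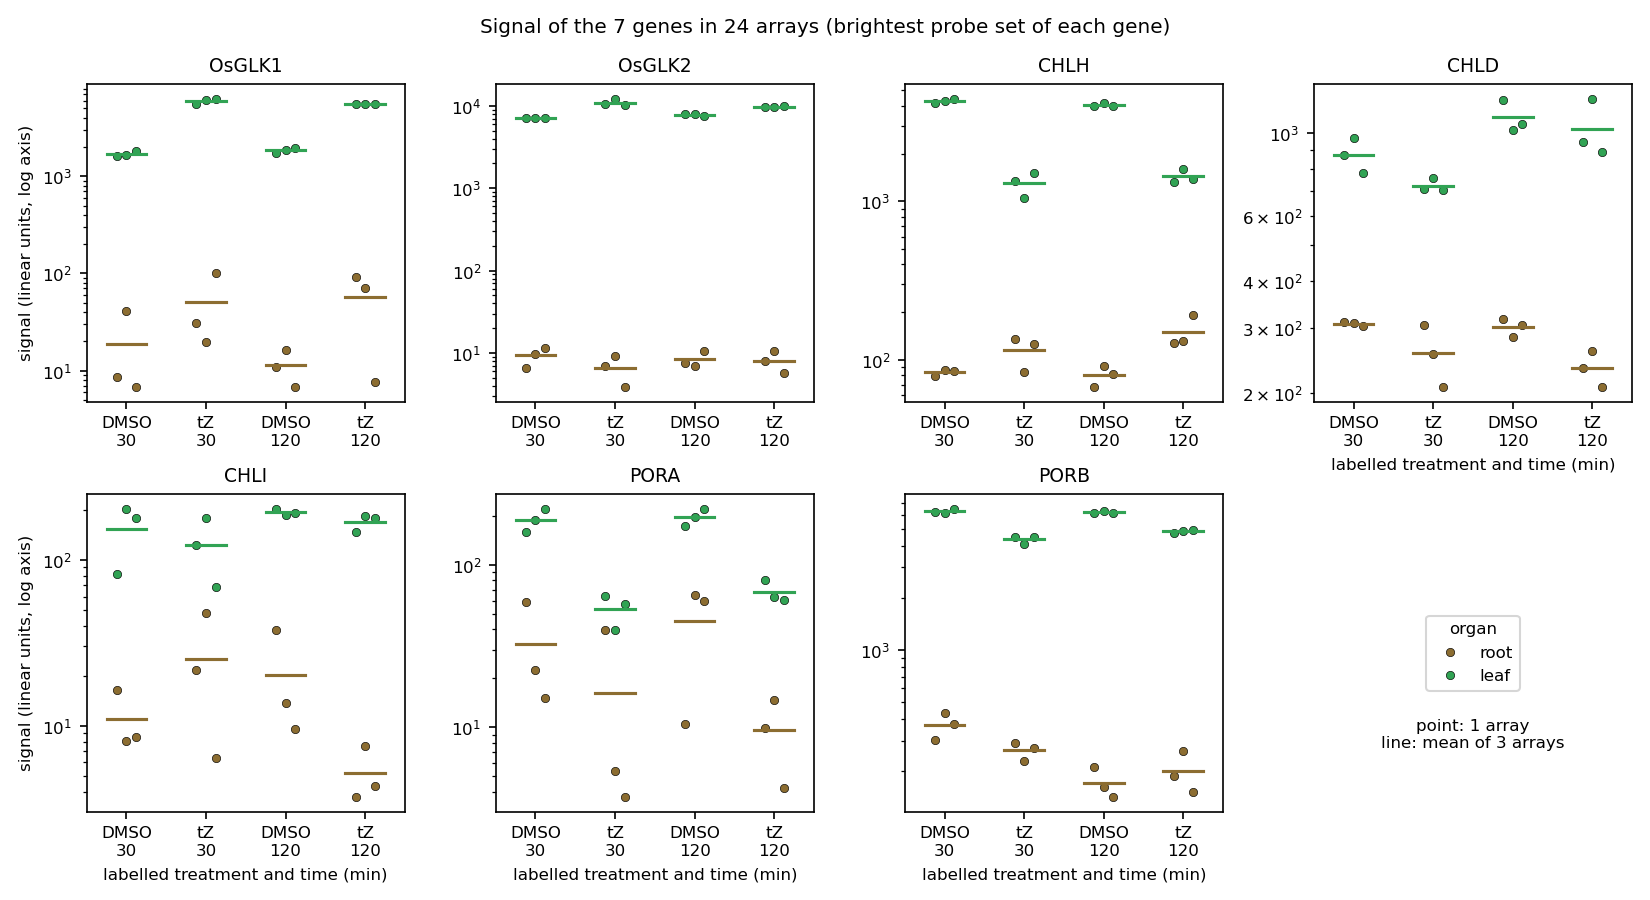
Signal of the brightest probe set of each of the 7 genes, in linear units on a log axis, by labelled treatment and time, with root and leaf in separate colours. Each point is 1 array and each line the mean of 3 arrays. In leaf OsGLK1 lies between 5496 and 6258 in the 6 arrays labelled tZ and between 1628 and 1961 in the 6 labelled DMSO, and CHLH shows the opposite order.

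OsGLK1, one of the pair of rice GLK genes, had the largest change of the 7 in leaf. It read 1627.9, 1651.2 and 1803.5 in DMSO at 30 min and 5599.1, 6042.0 and 6258.5 in tZ at 30 min. At 120 min it read 1727.5, 1852.7 and 1960.6 in DMSO and 5596.6, 5501.9 and 5496.1 in tZ. No array labelled tZ, at either time, overlapped with any labelled DMSO. The ratio of mean signals, tZ over DMSO, was 3.52 at 30 min and 2.99 at 120 min. The log2 change was 1.80 (SE 0.061, limma adjusted p = 5.2e-13) at 30 min and 1.57 (SE 0.061, adjusted p = 3.5e-12) at 120 min. Only 2.97% of the probe sets tested had a change of larger size at 30 min, and 3.68% at 120 min.

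OsGLK2, the other GLK gene, changed in the same direction by less. Signals of different probe sets have no common scale, so the levels of the GLK genes are not set against each other. OsGLK2 read 7145.7, 7168.5 and 7151.7 in DMSO at 30 min and 10513.8, 12157.4 and 10195.4 in tZ at 30 min. At 120 min it read 8058.9, 7870.8 and 7605.5 in DMSO and 9642.8, 9791.7 and 9898.5 in tZ. The 4 leaf groups did not overlap with each other, in the rising order DMSO 30 min, DMSO 120 min, tZ 120 min and tZ 30 min, although only the steps between treatments were called. The log2 change was 0.61 (SE 0.056, adjusted p = 1.3e-07) at 30 min and 0.32 (SE 0.056, adjusted p = 0.00019) at 120 min. For this brightest probe set these sizes are ordinary for the leaf, since 30.9% of probe sets changed more at 30 min and 54.4% at 120 min. Its ratio of mean signals, tZ over DMSO, was 1.53 at 30 min and 1.25 at 120 min. The second brightest OsGLK2 probe set, described below, changed more, with ratios of 2.13 and 1.52.

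CHLH, the porphyrin-binding subunit of magnesium chelatase, fell in the arrays labelled tZ. It read 4138.7, 4271.7 and 4416.1 in DMSO at 30 min and 1349.9, 1047.4 and 1504.3 in tZ at 30 min. At 120 min it read 4005.9, 4159.2 and 4010.6 in DMSO and 1321.8, 1589.0 and 1390.9 in tZ. Every array labelled DMSO lay above every array labelled tZ, and the 2 times overlapped within each treatment. The mean in tZ was 30.4% of that in DMSO at 30 min and 35.3% at 120 min. The log2 change was -1.72 (SE 0.10, adjusted p = 3.7e-10) and -1.49 (SE 0.10, adjusted p = 2.6e-09), exceeded in size by 3.45% and 4.35% of probe sets.

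The other magnesium chelatase subunits did not pass the test. CHLD, which forms with CHLI the ATP-driven part of the enzyme, read 873.0, 973.1 and 782.8 in DMSO and 709.3, 758.0 and 701.8 in tZ at 30 min, without overlap. At 120 min it read 1226.4, 1022.8 and 1057.2 in DMSO and 947.0, 1236.1 and 891.6 in tZ, which overlap. Its log2 difference was -0.27 (95% confidence interval -0.51 to -0.026, adjusted p = 0.067) at 30 min and -0.11 (interval -0.35 to 0.13, adjusted p = 0.47) at 120 min. Without replicate 3 of DMSO 30 min the difference at 30 min was -0.34 (adjusted p = 0.033). CHLI, the ATPase subunit, was dim and variable, at 82.3, 201.0 and 178.4 in DMSO and 121.9, 178.7 and 68.9 in tZ at 30 min. Its signals at 120 min were 202.9, 185.7 and 192.1 in DMSO and 146.0, 182.3 and 178.6 in tZ. The difference was -0.28 (interval -0.88 to 0.32, adjusted p = 0.47) at 30 min and -0.18 (interval -0.78 to 0.42, adjusted p = 0.66) at 120 min.

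PORA and PORB, the protochlorophyllide oxidoreductase genes, both fell, by different amounts. PORA, known in rice as the form of early leaf development, read 159.1, 188.1 and 218.8 in DMSO and 64.2, 39.7 and 57.1 in tZ at 30 min. At 120 min it read 172.8, 196.3 and 221.1 in DMSO and 80.2, 63.0 and 60.6 in tZ. No array of one treatment overlapped with the other, but in tZ its signals came near the array medians. The log2 change was -1.51 (SE 0.20, adjusted p = 6.8e-06) and -1.30 (SE 0.20, adjusted p = 3.6e-05), exceeded in size by 5.00% and 6.39% of probe sets. PORB, the form known to persist in green rice leaves, read 6202.5, 6154.5 and 6514.3 in DMSO and 4490.3, 4055.3 and 4473.5 in tZ at 30 min. Its signals at 120 min were 6159.6, 6319.4 and 6130.2 in DMSO and 4725.2, 4819.9 and 4933.5 in tZ. The treatments did not overlap, and the log2 change was -0.53 (SE 0.050, adjusted p = 1.4e-07) and -0.36 (SE 0.050, adjusted p = 1.5e-05). Some probes of the only PORB probe set may also bind related transcripts, as its name marks.

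**Figure D2:**
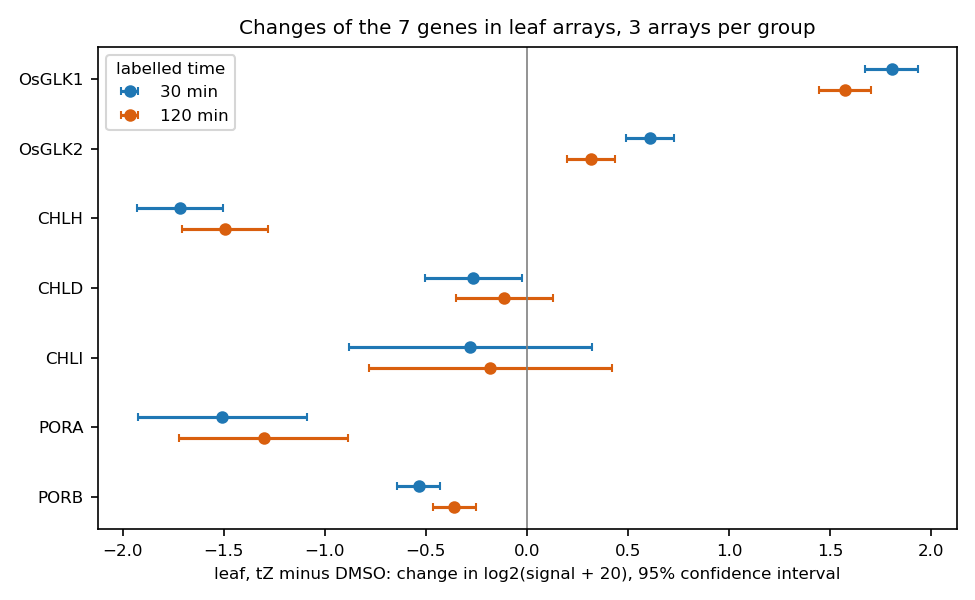
Change of each of the 7 genes in leaf, labelled tZ minus DMSO, in log2(signal + 20) on the horizontal axis, at 30 and 120 min, 3 arrays per group. Points are limma estimates and bars 95% confidence intervals. The GLK genes lie at 0.32 to 1.80, CHLH, PORA and PORB at -1.72 to -0.36, and the intervals of CHLI at both times and of CHLD at 120 min include 0.

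The labelled times were compared within each treatment. Between 120 and 30 min in DMSO 0 of 7 members were called by limma, and 2 of 7 had an unadjusted p below 0.05, where 1.4% of all probe sets were called. The changes ran from -0.074 for CHLH to 0.37 for CHLI, and those with an unadjusted p below 0.05 were CHLD at 0.33 and OsGLK2 at 0.13. Between the tZ groups CHLD was the 1 member called, higher at 120 min by 0.48 (SE 0.11, adjusted p = 0.013), where 8.01% of probe sets were called. That call was lost without replicate 2 of tZ 120 min, with a change of 0.34 (adjusted p = 0.07). The difference between the tZ changes at the 2 times passed limma for 0 of 7 members, 3 of 7 having an unadjusted p below 0.05, against 3.83% of probe sets. The nearest was OsGLK2, whose change at 120 min minus that at 30 min was -0.29 (SE 0.080, adjusted p = 0.056). Without replicate 1 or replicate 3 of tZ 30 min that difference passed, at -0.32 (adjusted p = 0.048) and -0.34 (adjusted p = 0.022).

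Since the type-A regulators put 2 group labels in doubt, the remaining pairs of leaf groups are given. In tZ 120 min against DMSO 30 min the same 2 GLK genes were called higher and CHLH, PORA and PORB lower, where 45.6% of probe sets were called. OsGLK1 differed by 1.70, OsGLK2 by 0.45, CHLH by -1.57, PORA by -1.24 and PORB by -0.38. In DMSO 120 min against tZ 30 min 4 members were higher and 2 lower, where 44.2% of probe sets were called. CHLH was higher by 1.64, PORA by 1.57, CHLD by 0.59 and PORB by 0.51, while OsGLK1 differed by -1.68 and OsGLK2 by -0.48. These pairs share groups with those above and are not further replicates of them. For OsGLK1, OsGLK2, CHLH, PORA and PORB the leaf arrays thus fell together by labelled treatment, not by labelled time. As set out above, these clusters would be the 2 times if those 2 groups had each other's labels. The ratio of 3′ to 5′ actin signal, a measure of RNA integrity, was 6.61 to 8.43 in DMSO and 7.19 to 7.90 in tZ at 30 min, with an overlap. It was 6.45 to 7.08 in DMSO at 120 min and 7.23 to 8.92 in tZ, so that every tZ array lay above every DMSO array, and its part in the results was not tested.

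OsGLK2 and CHLH allow a comparison of probe sets for 1 gene. The second brightest OsGLK2 probe set also rose in leaf, by 1.08 (SE 0.087, adjusted p = 2.3e-08) at 30 min and 0.60 (SE 0.087, adjusted p = 2.3e-05) at 120 min. For this probe set the change at 120 min minus that at 30 min was -0.48 (SE 0.12, adjusted p = 0.040). The other OsGLK2 probe sets were dimmer, at 92.6 to 254.7 over the leaf arrays, and were called at neither time. The brighter of them, of the type whose probes may bind other transcripts, differed by 0.37 and -0.039, and the dimmest by -0.074 and -0.43. In tZ 120 min against DMSO 30 min the dimmest was called lower, at -0.58 (adjusted p = 0.039), where the brightest OsGLK2 probe set was called higher. The probe sets of OsGLK2 therefore disagreed, with the brighter pair higher and the dimmer pair not. All 4 read higher in each leaf array than in any root array.

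The second CHLH probe set, of a type that may bind transcripts of several genes, did not follow the first. It read 1.4 to 28.3 in the 12 leaf arrays, below the median signal of each, and 28.4 to 109.5 in the 12 root arrays. Its leaf signals thus lay below its root signals, where those of the brighter CHLH probe set lay above. In leaf it was too dim to be tested for treatment. In root it differed between treatments by -0.21 at 30 min and -0.28 at 120 min, and neither was called.

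**Figure D3:**
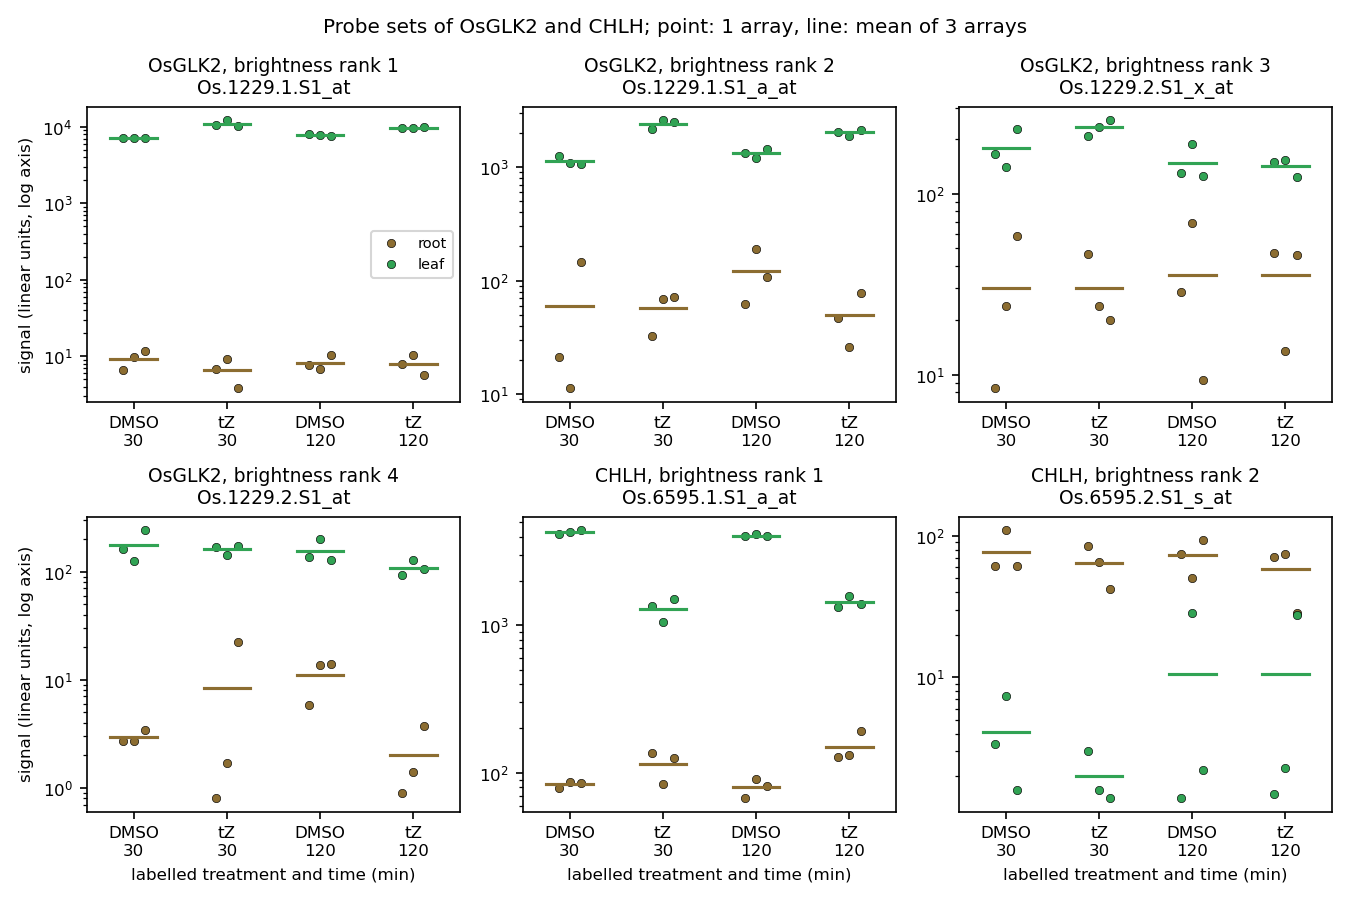
Signal of the 4 probe sets of OsGLK2 and the 2 of CHLH, in linear units on a log axis, by labelled treatment and time in root and leaf. Points are arrays and lines means of 3 arrays. The second CHLH probe set lies at 1.4 to 28.3 in leaf, below its root signals of 28.4 to 109.5, the reverse of the first.

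In root only CHLH, CHLD and PORB were bright enough to be tested, that is 3 of 7 members. OsGLK2 read 3.8 to 11.6, CHLI 3.7 to 47.9 and PORA 3.7 to 64.8, each below the median signal in all 12 root arrays. OsGLK1 read 6.7 to 101.0 and lay below it in 9 of 12. The second brightest OsGLK2 probe set read 11.2 to 191.0 in root and lay below it in 8 of 12. At such levels no order of the root groups is read for these 4 genes. CHLH read 79.0, 86.1 and 85.4 in DMSO and 135.4, 84.0 and 126.5 in tZ at 30 min, with an overlap. At 120 min it read 67.2, 91.5 and 81.5 in DMSO and 127.7, 132.3 and 192.1 in tZ, without overlap. The root difference of CHLH was 0.37 (SE 0.25, adjusted p = 0.31) at 30 min and 0.76 (SE 0.25, adjusted p = 0.033) at 120 min.

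At 30 min limma called 0 of 3 tested members in root, 1 of 3 having an unadjusted p below 0.05, where 33.7% of probe sets were called, 13.9% higher and 19.9% lower. At 120 min CHLH was the 1 called of 3, where 30.3% were called, 11.4% higher and 18.9% lower. Of the calls over all probe sets at 120 min 37.7% were higher, or 54.0% after all arrays were set to 1 median. The CHLH call was lost without DMSO 120 min replicate 1 (0.66, adjusted p = 0.1), without DMSO 120 min replicate 3 (0.77, adjusted p = 0.064), without tZ 120 min replicate 3 (0.59, adjusted p = 0.16) and with no filter on low values (0.76, adjusted p = 0.088). CHLD read 303.3 to 310.6 in DMSO and 208.0 to 305.8 in tZ at 30 min, and 284.1 to 316.9 in DMSO and 207.5 to 260.7 in tZ at 120 min. Its groups overlapped at 30 min and not at 120 min, and its differences were -0.26 (SE 0.16, adjusted p = 0.23) and -0.35 (SE 0.16, adjusted p = 0.11).

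In root PORB fell with labelled time in DMSO. It read 302.6, 431.3 and 373.7 in DMSO at 30 min and 211.2, 161.4 and 141.5 in DMSO at 120 min, without overlap. This difference of -1.03 (SE 0.21, adjusted p = 0.0078) was the 1 call among 3 tested members, where 6.23% of probe sets were called, and 1.61% of probe sets changed more. In the arrays labelled tZ it read 291.4, 230.0 and 272.1 at 30 min and 188.2, 262.6 and 151.4 at 120 min, with an overlap and a difference of -0.39 (adjusted p = 0.33) that was not called. Between those groups limma called 0 of 3 members, at unadjusted p of 0.08 to 0.49, against 6.74% of probe sets. The tZ minus DMSO difference of PORB was -0.44 (SE 0.21, adjusted p = 0.12) at 30 min and 0.19 (SE 0.21, adjusted p = 0.55) at 120 min. Its difference between these changes was 0.64 (SE 0.30, unadjusted p = 0.048, adjusted p = 0.27), and 0 of 3 members passed that test, against 4.6% of probe sets.

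The remaining pairs of root groups gave 3 calls. In tZ 120 min against DMSO 30 min CHLH was higher by 0.70 (adjusted p = 0.048) and PORB lower, at -0.84 (adjusted p = 0.006), where 29.4% of probe sets were called. That CHLH call was lost when any 1 of its 6 arrays was left out, at 0.54 to 0.80 (adjusted p = 0.061 to 0.21). It was also lost in limma with a pseudocount of 5 (0.79, adjusted p = 0.052) and with no filter on low values (0.70, adjusted p = 0.12). In DMSO 120 min against tZ 30 min PORB was lower, at -0.58 (adjusted p = 0.041), where 35% were called. That PORB call was lost without tZ 30 min replicate 1 (-0.51) or replicate 3 (-0.56) and without DMSO 120 min replicate 2 (-0.55) or replicate 3 (-0.47). No filter on low values (limma adjusted p = 0.07) and no intensity trend (adjusted p = 0.056) also ended it, with the difference still at -0.58.

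Between the organs, CHLH, CHLD and PORB, the 3 members tested in root as well as in leaf, were called higher in leaf in each of the 4 conditions and in their mean. The share of all probe sets called higher in leaf was 26.1% in DMSO 30 min, 30.1% in tZ 30 min, 26.5% in DMSO 120 min, 29.5% in tZ 120 min and 33.8% in the mean, with 38131 tested. In the mean, the log2 difference, leaf minus root, was 4.38 (SE 0.071) for PORB, 4.28 (SE 0.076) for CHLH and 1.68 (SE 0.066) for CHLD. The median over all probe sets was -0.14 as deposited, 0.070 after quantile normalization and 0.27 after all arrays were set to 1 median, and the share of calls that were higher in leaf moved from 44.1% to 53.0% and 64.3%. The differences of these 3 genes are larger than these shifts under every scaling tried. The actin 3′ to 5′ ratio also separated the organs, at 3.38 to 4.67 in root and 6.45 to 8.92 in leaf, and its part in these differences was not tested.

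The other 4 members entered the organ comparison only through their leaf signals, so no size or test of their organ difference is given. OsGLK2 read 7145.7 to 12157.4 in the 12 leaf arrays and 3.8 to 11.6 in the 12 root arrays. OsGLK1 read 1627.9 to 6258.5 in leaf and 6.7 to 101.0 in root. CHLI read 68.9 to 202.9 in leaf and 3.7 to 47.9 in root, and PORA read 39.7 to 221.1 in leaf and 3.7 to 64.8 in root.

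By its brightest probe set, CHLH differed less between the organs in the arrays labelled tZ than in those labelled DMSO. Mean leaf signal over mean root signal was 51.2 and 50.7 in DMSO at 30 and 120 min, and 11.3 and 9.51 in tZ. The second CHLH probe set read lower in leaf than in root in each condition, with ratios of 0.031 to 0.18. The tZ change of CHLH in leaf minus that in root was -2.08 (SE 0.21, adjusted p = 2.9e-08) at 30 min and -2.25 (SE 0.21, adjusted p = 7.6e-09) at 120 min. In this test 1 of the 3 members tested in both organs was lower at 30 min, where 31.3% of probe sets were called, and 2 of 3 were lower at 120 min, where 30.7% were. For OsGLK1, OsGLK2, CHLI and PORA, dim in root, the test is not read. PORB was lower at 120 min, at -0.55 (SE 0.20, adjusted p = 0.037), a call lost without any 1 of 9 of the 12 arrays compared, which are all 6 leaf arrays, root DMSO 120 min replicates 2 and 3 and root tZ 120 min replicate 2, at -0.57 to -0.36. The DMSO time change of PORB differed between leaf and root by 1.01 (SE 0.20, adjusted p = 0.0072), the 1 call among these 3 members, where 2.07% of probe sets were called.

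The neighbouring genes of the pathway were taken from lists that leave the members out. Before the branch to chlorophyll and heme, 3 of 5 listed genes were lower and 0 higher in leaf arrays labelled tZ, at both times, with a median change of -0.28 at 30 min and -0.25 at 120 min, against 0.034 and 0.026 over all probe sets. The counts of this and the following leaf lists stand against 23.7% of all probe sets higher and 21.8% lower at 30 min, and 22% and 21.4% at 120 min. GluTR, glutamyl-tRNA reductase at the entry of the pathway, fell by 0.92 at 30 min and 0.55 at 120 min. HEMB, the enzyme that forms porphobilinogen, fell by 0.40 at both times, and PPO, protoporphyrinogen oxidase, fell by 0.28 and 0.25. HEMD and GSA were not called at either time, at -0.20 and 0.027 for HEMD and -0.076 and -0.14 for GSA.

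In the chlorophyll branch itself, the other 3 genes with a probe set, CHLP, CAO and CHLG, were all lower in leaf at both times. The median change was -1.33 at 30 min and -1.07 at 120 min. CHLP, the geranylgeranyl reductase that makes the phytyl tail, fell by 1.33 and 1.07. CAO, by its name the oxygenase that makes chlorophyll b, fell by 1.35 and 1.25, and the gene table gives it the second name Lls1. CHLG, chlorophyll synthase, fell by 0.17 (adjusted p = 0.031) and 0.19 (adjusted p = 0.014). Of the heme side, 1 of 2 tested genes was lower at both times, with a median of -0.28 and -0.38, where 21.8% and 21.4% of all probe sets were lower. The heme oxygenase gene HO1, which acts in phytochrome chromophore synthesis, fell by 0.43 and 0.67, and HO2 was not called, at -0.14 and -0.093. The remaining gene of that list, matched through the name FC1, is also named OsCAD7, an alcohol dehydrogenase gene by that name, and was too dim to be tested.

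Of the 4 chlorophyll breakdown genes, 3 were lower and 1 higher in leaf at both times, with a median of -0.44 and -0.52, where 21.8% and 21.4% of all probe sets were lower. NYC1 and NOL, subunits of chlorophyll b reductase, fell by 0.58 and 0.29 at 30 min and by 0.73 and 0.31 at 120 min. SGR, the stay-green gene, fell by 0.62 and 0.88. OsRCCR1, a red chlorophyll catabolite reductase gene, rose by 0.64 and 0.22. Its call at 120 min was lost without replicate 1 or 3 of DMSO 120 min, without replicate 1 or 3 of tZ 120 min, after all arrays were set to 1 median and with no intensity trend.

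Among 8 other genes of chloroplast development and light sensing, 1 was higher and 3 lower in leaf at 30 min, and 2 were higher and 2 lower at 120 min, with a median of -0.12 at both times. That is 4 of 8 called at each time, near the 45.6% and 43.4% called over all probe sets. The photoreceptor gene PhyB rose by 0.47 and 0.34 and PHYA fell by 1.21 and 1.32. OsSig2B, a sigma factor gene of plastid transcription, fell by 0.37 and 0.42. V2, a guanylate kinase gene of virescent rice, fell by 0.44 at 30 min and was not called at 120 min, at -0.13. HAP3A rose by 0.24 at 120 min and was not called at 30 min, at 0.15. The higher count at 30 min became 2 without DMSO 30 min replicate 2, and that at 120 min became 1 after all arrays were set to 1 median.

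All 9 tested genes of the light-harvesting, photosystem and rubisco list were lower in leaf arrays labelled tZ at both times, with a median of -0.73 at 30 min and -0.46 at 120 min. The list holds AAP-S, matched only through its synonym PSA and not a photosystem gene by its main name, at -0.14 both times. The largest falls at 30 min were those of PSB28, a photosystem II factor, by 1.67 and of OsrbcS, the rubisco small subunit, by 1.34. At 120 min they were those of PSB28, by 1.43, and PSAG, a photosystem I subunit, by 1.03. By their brightest probe sets, the GLK genes thus rose in the same leaf arrays in which CHLH, PORA, PORB and these genes fell. The dimmer pair of OsGLK2 probe sets was not called higher, as described above.

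**Figure D4:**
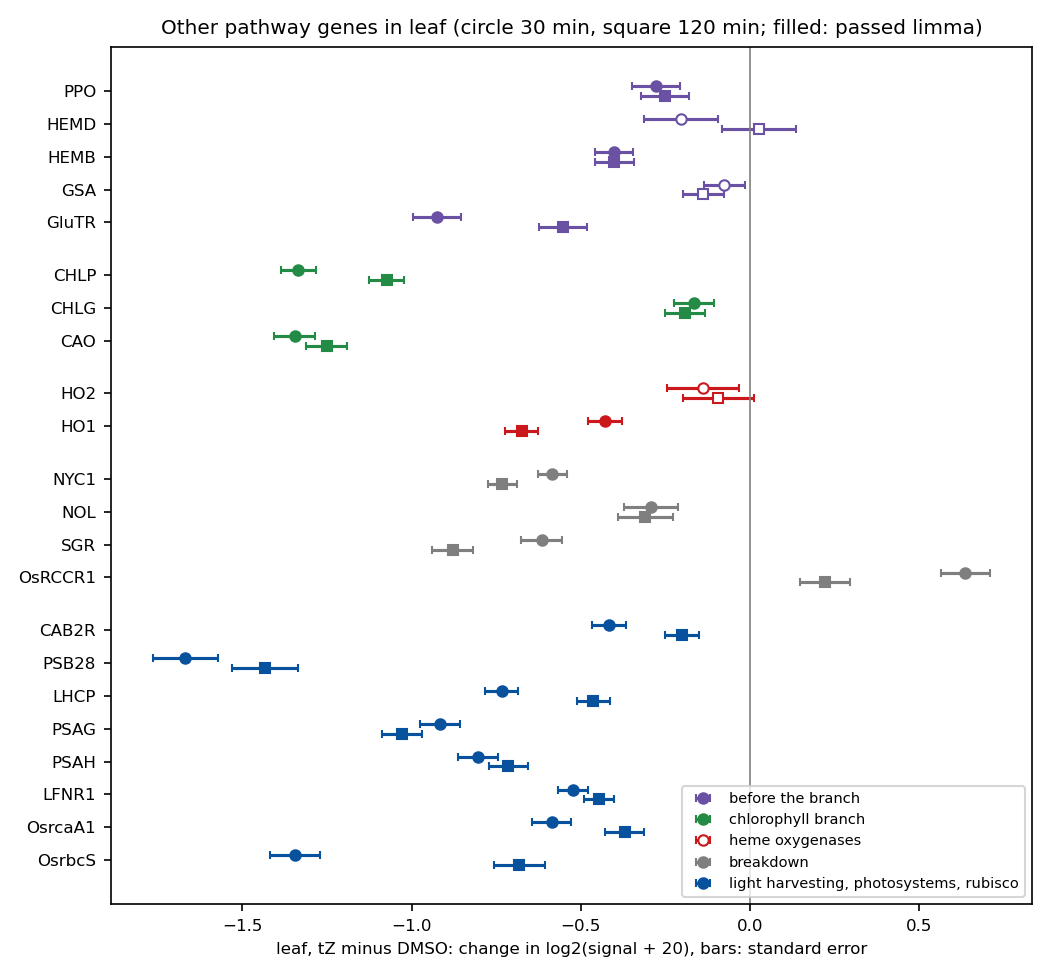
Change in leaf, labelled tZ minus DMSO, in log2(signal + 20), of the pathway genes other than the 7 members, without AAP-S and the factors of chloroplast development, 3 arrays per group. Circles are 30 min, squares 120 min, bars standard errors, and filled symbols passed limma. OsRCCR1, at 0.64 and 0.22, is the 1 gene to the right of 0 at both times.

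In root, where 19.9% of all probe sets were lower and 13.9% higher at 30 min and 18.9% and 11.4% at 120 min, the lists moved in both directions. GluTR fell by 1.33 at 30 min and 0.39 at 120 min, and GSA, which forms aminolevulinic acid, fell by 0.41 and 0.27, making 2 of 5 lower at each time. CAO rose by 0.56 (adjusted p = 0.033) and 1.06 (adjusted p = 0.00046), as the 1 gene of 3 higher at each time, and CHLP fell by 2.07 at 30 min and was not called at 120 min, at -0.38. HO2 fell by 0.53 at 120 min, the 1 call of 2 genes, and neither passed at 30 min. NYC1 was lower, at -0.58 and -0.75, and SGR at -2.53 and -1.89, while NOL rose by 1.17 and 1.10, and OsRCCR1 rose by 0.61 at 30 min and was not called at 120 min, at -0.056. By their brightest probe sets, CAO and CHLH were thus higher in root and lower in leaf in the arrays labelled tZ at 120 min, each with its own test. The second CHLH probe set averaged 58.2 in root tZ and 72.7 in root DMSO at 120 min, the other way, and was not called. The root call of CHLH was lost without some single arrays and with no filter on low values, as given above.

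Of the 7 tested genes of chloroplast development, 5 were lower in root at 30 min and 4 at 120 min, with 0 higher, where 19.9% and 18.9% of all probe sets were lower. The largest changes at 30 min were those of V2, at -1.42, and PHYA, at -0.64. At 120 min V2 was at -1.01, phyC, a further phytochrome gene, at -0.53, PhyB at -0.42 and PHYA at -0.27. Among 9 tested light-harvesting and photosystem genes 6 were lower at 30 min and 1 at 120 min. The largest falls at 30 min were those of LHCP, at -3.41, and CAB2R, at -2.96, both chlorophyll-binding protein genes, and at 120 min CAB2R fell by 1.36. The medians were -0.98 and -0.43, against -0.039 and -0.10 over all probe sets.

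As a description of pattern, Pearson correlations of log2 signals over the 12 leaf arrays were computed between members. CHLH correlated at 0.98 with PORB and 0.97 with PORA, OsGLK1 at 0.94 with OsGLK2, and CHLH at -0.98 with OsGLK1 and -0.96 with OsGLK2. CHLD and CHLI stayed between -0.38 and 0.59 with every other member. The arrays fall into 2 clusters by labelled treatment, so these values mostly repeat the treatment difference. Among 2177 tested genes with a name, the 5 most like OsGLK1 in leaf were OsWNK7, AC1, XBOS31, Adh2 and GAPC3, at 0.995 to 0.997. Those most like OsGLK2 were CLS, copz1, CIPK24, Ip and OsC3H2, at 0.974 to 0.980. For CHLH they were CESA5, APR-like1, MT2B, PSB28 and CRSH1, at 0.992 to 0.996.

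PORA was most like Fd-GOGAT, EXP10, MT2B, NAC067 and ArsM1, at 0.981 to 0.991, and PORB most like JAZ12, JAZ4, CBL4, OsTIP2 and CIPK10, at 0.989 to 0.990. For CHLI, the highest values were lower, at 0.753 to 0.839 with OG1, Lpa1, OsbZIP49, OsCASPL1C1 and ROMT-17. CHLD reached 0.832 to 0.896 with OPR4, ALS, ADPase, OsRR9 and PLD2. Over the 12 root arrays and 2241 named genes CHLH was most like DAPB2, CP1, hox14, RAB16C and NCL1, at 0.857 to 0.931. CHLD in root was most like LPR4, XB3, CCAMK, MHX1 and FTIP1, at 0.885 to 0.915. PORB in root was most like OsPLP2, GER1, opda, JAMYB and OsPht1, at 0.871 to 0.905.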

How the data were processed

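Total RNA was turned into biotin-labelled cRNA and measured on 1-colour rice arrays, per the labels' protocols. The authors deposited intensity values on a linear scale, 1 for each probe set in each array, and how they were summarised is not given in the sources used here. With 2% of probe sets trimmed at either end, every array had a mean of 500.07 to 500.08, so the values had been scaled. Of 57381 probe sets, 187 controls were left out. Values were turned into log2(signal + 20), with no further normalization. A probe set was tested in an organ if its mean log2 value exceeded the 40th percentile, which left 34316. The test was limma 3.58.1 (R 4.3.3), two-sided, with lmFit and an eBayes step that used the intensity trend, and p-values were adjusted by Benjamini-Hochberg over all probe sets tested, with a threshold of 0.05. The 12 arrays of an organ shared a fit, and contrasts between organs used all 24 and are given for members that passed the filter in each organ. The fit was tested on simulated data in which far fewer probe sets were changed than were called between treatments here. That run therefore does not cover so broad a change.

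Gene names come from the array's annotation and a RefSeq table (assembly ASM3414082v1), which held all 17905 genes of 22436 probe sets with exactly 1 gene, while 95 probe sets had several genes and 34663 none. The members, gene lists, tests and alternatives were chosen with earlier results of these data known. All members were described, and of a list every called gene was named if 4 or fewer, otherwise the 2 largest in each direction. For each member the 5 named genes with the highest Pearson correlation were given. Precision is limited by 3 arrays per group, and neither the labels nor the table give a scan date or batch. No pair of arrays was identical. Alternatives were pseudocounts of 5 and 80, quantile normalization, all arrays set to 1 median, no filter or one at the 60th percentile, no intensity trend, the replicate number as a block, the dimmest probe set of list genes, and each array left out.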

Additional observations from a re-analysis of the deposited data

Results flagged for a closer look

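Differences between the organs in the response of a gene were singled out where the test of the difference itself passed in limma. For CHLH the tZ change in leaf minus that in root was -2.08 at 30 min and -2.25 at 120 min. For PORB it was -0.55 at 120 min, and the change from 30 to 120 min in DMSO differed by 1.01 between leaf and root. The PORB call at 120 min was lost in several runs with 1 array left out, as given above. It was also lost in limma with no filter on low values (adjusted p = 0.055) and with no intensity trend (adjusted p = 0.071). These 4 organ differences rest on the group labels as deposited, and whether the labels of DMSO 120 min and tZ 30 min were swapped was not tested.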

How the results depend on the processing

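In leaf, the calls of OsGLK1, OsGLK2, CHLH, PORA and PORB between labelled tZ and DMSO kept their direction at both times under every alternative run. They also stayed below the threshold in each. PORA was the most variable, at -1.74 to -1.01 at 30 min over the pseudocounts, scalings, filters, trend and block. These runs used the brightest probe set of each gene. The dimmer OsGLK2 and CHLH probe sets, which did not all follow, are described above. Root CHLH at 120 min was 0.76 and not called with no filter on low values, and 0.59 to 0.85 with each array left out. Root PORB at 120 min, not called, ran from -0.0023 to 0.36 with each array left out. Leaf CHLD at 30 min was called with the replicate block, at -0.27 (adjusted p = 0.048), and ran from -0.34 to -0.19 with each array left out, and leaf CHLI at 30 min from -0.62 to 0.026. Uncalled time changes in leaf DMSO also turned. PORB was 0.0026 after quantile normalization and 0.017 with all arrays set to 1 median, and ran from -0.035 to 0.0056 with each array left out, and PORA from -0.047 to 0.16. The difference between times of the CHLI change ran from -0.21 to 0.44. The OsGLK2 difference between times passed after quantile normalization (-0.31) and with a filter at the 60th percentile (-0.29). The CHLD change between the tZ times was not called without an intensity trend. The cause of these changes was not tested.

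Replicate numbers shared by the groups did not pair the arrays. Deviations of same-numbered arrays correlated at -0.048 to 0.061 in root and -0.037 to 0.021 in leaf. In either organ 0 of 18 pairs of same-numbered arrays exceeded 0.1. The replicate block ended the call of root CHLH in tZ 120 min against DMSO 30 min, at 0.70 (adjusted p = 0.061), added that of CHLD above, and changed no other member's call. Dim signals limit what root can show for OsGLK1, OsGLK2, CHLI and PORA.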
